A study of Dipsacus asperoides with 9 samples.

Results

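The unigenes described here carry names of 4 plant hormone pathways in roots of *Dipsacus asperoides*, a perennial medicinal herb. A unigene is a transcript group built by de novo assembly, and its name is that of the closest protein match in another plant. Members were found by name: the description had to contain gibberellin, cytokinin, brassinosteroid, two-component response regulator ORR or ARR, ethylene receptor, ethylene insensitive, EIN3, 1-aminocyclopropane or DELLA. Of 65535 unigenes in the table, 109 had such a name and 78 of them also reached 1 FPKM in 3 or more of the 9 libraries. FPKM is the number of fragments per kilobase of transcript, scaled by the mapped fragments of the library. A further 20 were dropped because their closest match was to *Beta*, *Chenopodium*, *Spinacia*, *Quercus suber* or *Hordeum*, which left 58 members. The table holds part of the assembly, so counts of a family refer to that part. These were 27 ethylene unigenes, 11 cytokinin unigenes, 16 gibberellin (GA) unigenes and 4 brassinosteroid unigenes. Identifiers are given without their shared prefix TRINITY_. Of the members, 14 lay in 7 read clusters with another member (the same number after DN), and reads of such near copies may have been split between them.

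The 9 libraries were made from wild-type (WT) roots, with 3 biological replicates at each stage. The L1 stage was the root of seedlings with 1 leaf, the L2 stage the root of seedlings with 2 leaves, and the M7 stage the root of plants grown for 7 months. No treatment separated the stages, and neither the age of the seedlings nor the number of plants behind a library is stated, so p-values measure the spread between these libraries. The stages differ in age, size and tissue makeup at once, and in whole roots fewer cells of a type and less RNA per cell cannot be told apart.

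Ethylene is made from ACC (1-aminocyclopropane-1-carboxylate), which ACC synthase forms and ACC oxidase turns into the gas. In *Arabidopsis*, ethylene receptors hold the pathway off until they bind ethylene, after which EIN3 and EIN3-like transcription factors act in the nucleus, and EIN3-binding F-box proteins send these factors for degradation. Cytokinins are released in active form by LOG enzymes, are broken down by cytokinin dehydrogenases, and act through type-B response regulators that switch on genes, among them the type-A regulators that dampen the response. Active gibberellins are made by GA 20-oxidases and GA 3-oxidases and inactivated by GA 2-oxidases (gibberellin 2-beta-dioxygenases), and they act by removing DELLA proteins, which repress growth. BAK1 (BRASSINOSTEROID INSENSITIVE 1-associated receptor kinase 1) is a co-receptor of the brassinosteroid receptor BRI1 and also serves other receptor kinases. In roots these hormones act on elongation, cell division, vascular growth and lateral roots.

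The libraries differed in how many unigenes they held. At least 1 FPKM was reached by 26048 to 28468 unigenes in L1 libraries, 32849 to 34173 in L2 libraries and 13430 to 18794 in M7 libraries. Replicate 1 of M7 had the fewest, and its 100 highest unigenes took 48.1% of all FPKM against 35.3% and 34.9% in the other M7 libraries. Replicate 3 of L1 also stood apart, with 34.2% against 25.3% and 26.5%. Among members, 46 to 50 reached 1 FPKM in L1 libraries, 51 to 54 in L2 and 27, 36 and 33 in M7 replicates 1 to 3, and 31 of the 58 had their lowest M7 value in replicate 1. Markers of other cell types moved with the stages as well. The summed level of 25 leaf and photosynthesis unigenes lay between 192.5 and 222.0 FPKM in L1, between 100.5 and 105.5 in L2 and between 1497.1 and 3344.6 in M7. That of 25 root cortex and endodermis unigenes lay between 1068.5 and 1356.2 in L1, between 502.2 and 506.3 in L2 and between 82.1 and 167.7 in M7, where 7 of them were under 0.1 FPKM in all libraries. Xylem markers (16 unigenes) summed to 92.1 to 123.6, 154.0 to 167.6 and 58.1 to 88.6 FPKM, and markers of cell division (43 unigenes) to 4067.8 to 5016.6, 2810.6 to 3157.9 and 2335.3 to 2991.7. In all M7 libraries, 14 of the cell division, 3 of the leaf and photosynthesis and 2 of the xylem markers were under 0.1 FPKM. The 3 root hair markers were found at each stage, with sums of 15.8 to 56.3, 86.2 to 97.9 and 44.1 to 100.5 FPKM. The part of these differences in the results below was not tested.

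With the deposited values, most of the members differed between seedling roots and M7. The larger number were lower in M7, as among all tested unigenes, and this balance changed with the scaling. Differences were tested with limma on log2(FPKM + 1), with Benjamini-Hochberg adjustment across the 34925 tested unigenes, and a unigene passed with an adjusted p under 0.05. All libraries entered a single fit in which the stages shared an estimate of the spread. Leaving out a library of the stage not compared could thus change an adjusted p but not a fold change. A DEG (differentially expressed gene) also changed by more than 2 on the log2 scale and had more than 30 FPKM in the mean of its highest stage. Fold changes are on the log2(FPKM + 1) scale, ± standard error, which understates the change of low unigenes. In L2 against L1, 6 members passed as higher (10.3%) and 10 as lower (17.2%), beside 26.1% and 14.8% of all tested unigenes. In M7 against L1, 10 were higher (17.2%) and 29 lower (50.0%), beside 9.37% and 35.1%. In M7 against L2, 12 were higher (20.7%) and 27 lower (46.6%), beside 7.71% and 52.6%. The dropped match species also bear on this background, because 19 of the 20 dropped unigenes were listed at 0 in all M7 libraries. Over the 30442 tested unigenes without these species, the higher and lower shares were 24.7% and 10.7% in L2 against L1, 10.5% and 32.3% in M7 against L1, and 8.58% and 50.2% in M7 against L2. The 3 comparisons share libraries, so their counts are not independent. The median member changed by 0.14, -0.71 and -0.85 in the order above, beside 0.32, -0.48 and -1.06 over all tested unigenes.

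DEGs were few. None of the members was a DEG that was higher in L2 than in L1 (0.868% of all tested unigenes were), and 1 was lower (0.372%). By limma, 6 members passed the adjusted threshold as higher there, so the count of 0 comes from the thresholds on fold change and level. In M7 against L1, 4 members were up-regulated DEGs (6.9%, beside 1.41%) and 4 were down-regulated DEGs (6.9%, beside 3.73%). In M7 against L2, 5 were up-regulated (8.62%, beside 1.01%) and 3 down-regulated (5.17%, beside 4.14%). These calls fell on 9 unigenes, while only 15 of the 58 members had a stage mean over 30 FPKM and could have been called. The split of calls depended on how the libraries were scaled. Of the members passing in M7 against L1, 25.6% were higher with the deposited values, 40.5% after median ratio rescaling and 50.0% after quantile normalization. The same shares were 30.8%, 42.9% and 63.6% in M7 against L2, and 37.5%, 16.7% and 15.8% in L2 against L1. Median ratio rescaling moved the median of all tested unigenes to 0.14, -0.25 and -0.71 and that of the members to -0.02, -0.58 and -0.46, in the same order, and quantile normalization moved the former to -0.04, 0.17 and 0.05 and the latter to -0.27, 0.21 and 0.25. Of the called values, 13 turned sign under quantile normalization, 5 of them in the comparison of M7 with L1 and 8 in that with L2, and 4 of these passed in both fits with opposite signs. They belonged to 9 members with low values in M7: an ACC oxidase-like unigene and a homolog (DN12021_c1_g1 and DN115202_c0_g1), DN2828_c0_g2 of the EIN3-like factors, both dehydrogenases named 5 (DN21856_c0_g1 and DN114403_c0_g1), DN18754_c0_g1 of the GA 2-oxidases, DN110597_c0_g1 of the DELLA proteins, DN17553_c0_g1, named chitin-inducible gibberellin-responsive protein, and DN1375_c0_g2 of the BAK1 names.

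**Figure D1:**
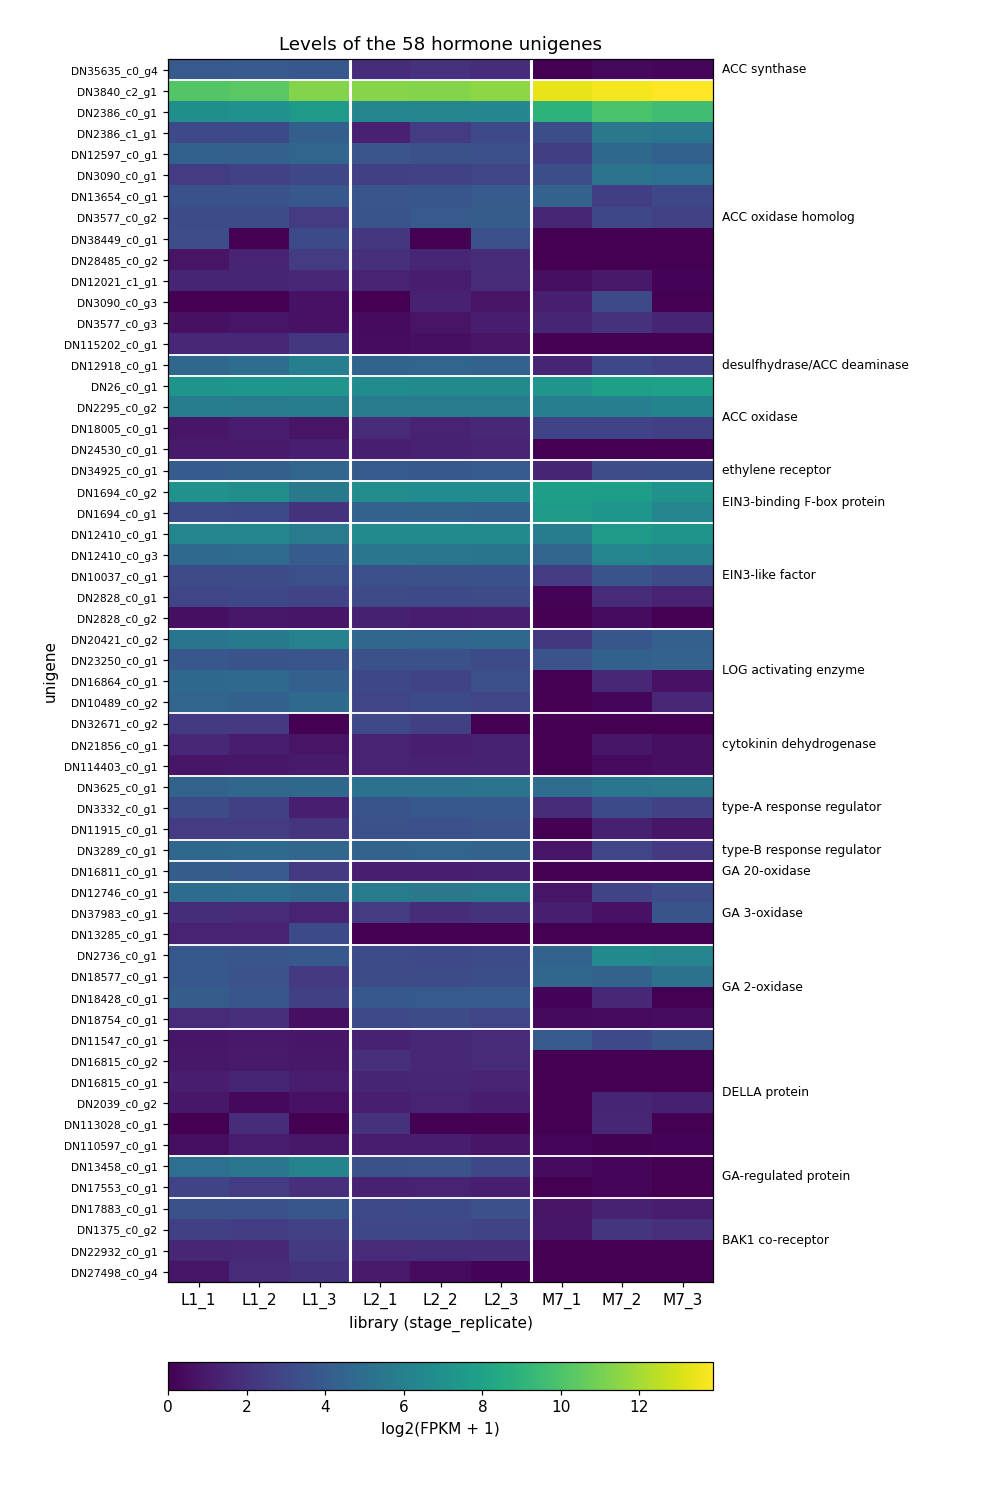
Level of each of the 58 members (rows, grouped by role) in each of the 9 libraries (columns, stage and replicate), as log2(FPKM + 1) on a colour scale from dark (0) to yellow (highest). An ACC oxidase homolog, DN3840_c2_g1, is the brightest row in each library, and the M7 columns hold the most rows at or near 0.

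**Figure D2:**
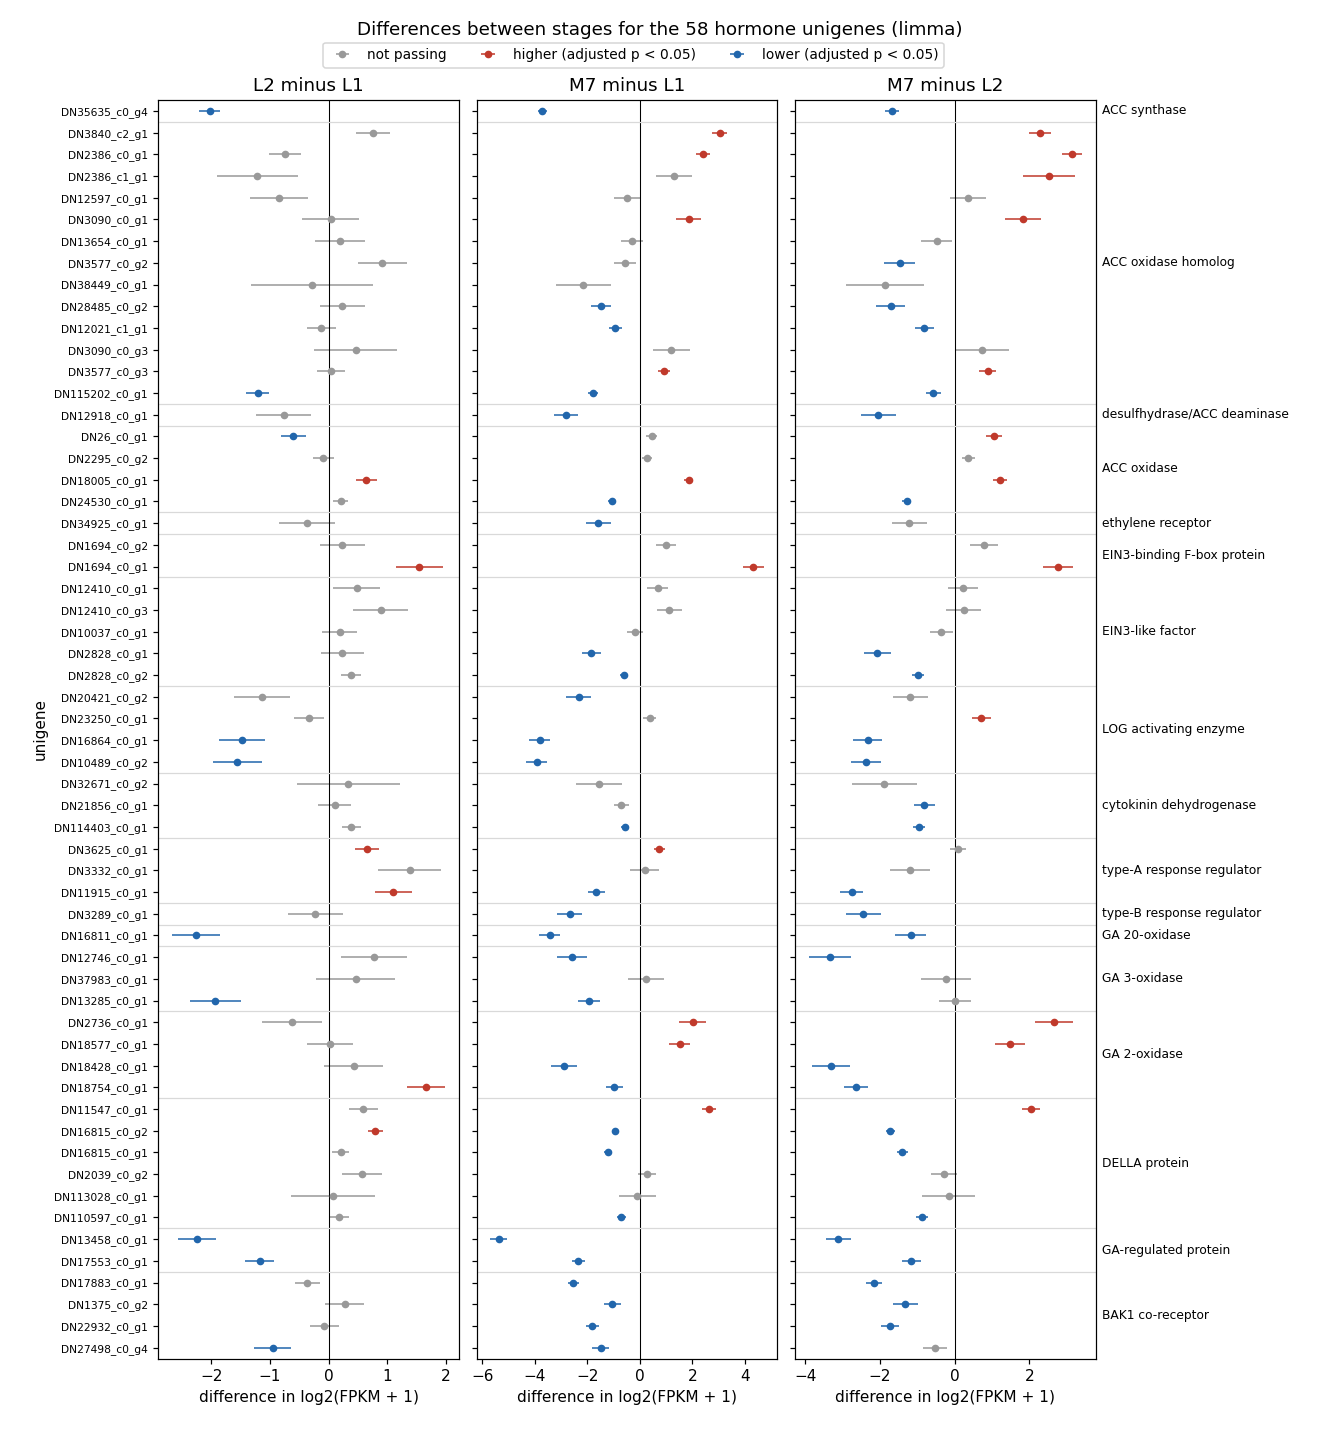
Difference in log2(FPKM + 1) between stages for each member, with points at the limma estimate and bars of 1 standard error, in 3 panels, L2 minus L1, then M7 minus L1, then M7 minus L2 (the horizontal axes differ between panels). Red points passed the test as higher and blue points as lower, with 10 red and 29 blue in M7 minus L1.

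In ethylene synthesis, the ACC synthase step rests on a single member, as other such names were under the filter or dropped for their match species. The ACC oxidases moved in both directions. The only ACC synthase among the members, DN35635_c0_g4, fell at each stage. It was at 13.85, 14.65 and 12.43 FPKM in the L1 replicates, 2.34, 2.89 and 2.51 in L2, and 0, 0.21 and 0.14 in M7, so that no 2 stages overlapped. Its log2 fold change was -2.03 ± 0.18 in L2 against L1 (limma adjusted p = 2.95e-05), -3.71 ± 0.18 in M7 against L1 (adjusted p = 4.17e-06) and -1.68 ± 0.18 in M7 against L2 (adjusted p = 8.13e-05). In the last comparison it was -0.19 after quantile normalization (adjusted p = 0.519). Its level stayed under 30 FPKM, so it was no DEG.

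ACC oxidase, which forms ethylene itself, had 4 members. DN26_c0_g1 was the highest, at 143.04, 156.07 and 148.64 FPKM in L1, 101.55, 93.15 and 98.94 in L2 and 151.71, 233.8 and 241.24 in M7. All M7 libraries were above those of L2, and M7 replicate 1 lay within the range of L1. The unigene rose in M7 against L2 (log2 fold change 1.06 ± 0.21, limma adjusted p = 0.00261), and its value in M7 against L1 was 0.45 ± 0.21 (adjusted p = 0.12), or 0.67 without M7 replicate 1 (adjusted p = 0.00268). Its lower level in L2 than in L1 (-0.60 ± 0.21, adjusted p = 0.0497) lay at the threshold and was lost when any library of L1 or L2, or M7 replicate 2 or 3, was left out (adjusted p = 0.0532 to 0.128). DN18005_c0_g1 was low but rose at each step, from 0.79, 1.05 and 0.65 FPKM in L1 through 2.1, 1.56 and 1.92 in L2 to 5.79, 5.96 and 5.13 in M7. The gain over L1 was 1.86 ± 0.18 (limma adjusted p = 8.35e-05) in M7 and 0.65 ± 0.18 in L2 (adjusted p = 0.0227). DN2295_c0_g2 held 49.97 to 76.62 FPKM over the 9 libraries and passed in no comparison. The lowest, DN24530_c0_g1, was at 1.03 to 1.58 FPKM in seedlings and 0 in M7. The sum of the 4 lay between 201.0 and 208.1 FPKM in L1, between 147.8 and 155.6 in L2 and between 217.1 and 323.0 in M7, so most of the summed ACC oxidase level came from DN26_c0_g1.

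A larger group of 13 unigenes is named ACC oxidase homolog or ACC oxidase-like. In *Arabidopsis* such names go to 2-oxoglutarate-dependent dioxygenases that resemble ACC oxidase, and the name alone does not show that a unigene makes ethylene. Of the 13, 4 rose and 3 fell in M7 against L1, 5 rose and 4 fell in M7 against L2, and 1 fell in L2 against L1. The shares higher and lower were 30.8% and 23.1% in M7 against L1, beside 9.37% and 35.1% of all tested unigenes, and 38.5% and 30.8% in M7 against L2, beside 7.71% and 52.6%. The split moved with the scaling, to 5 higher and 2 lower against L1 and 6 and 2 against L2 after median ratio rescaling, and to 6 and 1 and 8 and 0 after quantile normalization. In L2 against L1, none was higher and 7.69% were lower, beside 26.1% and 14.8% of all tested unigenes. The homolog that fell there, DN115202_c0_g1, passed the filter only through its L1 libraries. After the first rescaling 3 were lower in that comparison, and 4 after the second. The 2 homologs with the highest levels were among those that rose. DN3840_c2_g1 was at 1139.9, 1298.47 and 2555.56 FPKM in L1, 2563.31, 2522.08 and 2869.65 in L2, and 10806.1, 13051.8 and 14962.59 in M7. Among all 65535 unigenes it ranked 37, 31 and 17 in the L1 libraries, 9, 10 and 7 in L2, and 6, 1 and 1 in M7. It made up 52.7% to 71.2% of the summed FPKM of the members in L1 libraries, 74.5% to 76.4% in those of L2 and 84.9% to 88.7% in those of M7. The fold change was 3.04 ± 0.29 on the log2 scale in M7 against L1 (limma adjusted p = 6.93e-05) and 2.28 ± 0.29 in M7 against L2 (adjusted p = 0.000216), and it was a DEG in both. After quantile normalization the value against L2 was 1.63 (adjusted p = 0.0238), short of the DEG threshold. In L2 against L1 its value was 0.76 ± 0.29 (adjusted p = 0.0691), with L1 replicate 3 within the range of L2. Without that library the value was 1.12 (adjusted p = 0.000867).

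DN2386_c0_g1 was the second highest homolog and an up-regulated DEG in M7 too. It had 120.86, 126.54 and 170.87 FPKM in L1, 81.63, 80.07 and 83.5 in L2 and 499.97, 993.22 and 774.03 in M7. Each M7 library was above each seedling library, and the log2 fold change was 2.39 ± 0.27 against L1 (limma adjusted p = 0.000156) and 3.14 ± 0.27 against L2 (adjusted p = 1.86e-05). After quantile normalization the former was 1.98, just short of a DEG. Its cluster neighbour DN2386_c1_g1 had 7.35, 7.82 and 17.2 FPKM in L1, 1.4, 4.33 and 7.32 in L2 and 9.13, 44.96 and 41.99 in M7. M7 and L1 overlapped, and only M7 against L2 gave a call and a DEG (2.52 ± 0.69, limma adjusted p = 0.0129). The DEG was lost without L2 replicate 1 (adjusted p = 0.0524) with a pseudocount of 5 (1.83) and, because the M7 mean dropped under 30 FPKM, without M7 replicate 2 or 3. In M7 against L1 its value was 1.30 ± 0.69 (adjusted p = 0.17), and 2.01 without M7 replicate 1 (adjusted p = 0.0211). DN3090_c0_g1 showed the same split within M7, with 9.09 FPKM in replicate 1 beside 40.08 and 32.31, against 4.47 to 6.8 in the seedling libraries. It passed in M7 against L1 (1.86 ± 0.49, limma adjusted p = 0.0136), and the value was 2.49 without M7 replicate 1, which made it a DEG. The remaining homologs had stage means under 20 FPKM. Of these, DN28485_c0_g2 and DN115202_c0_g1 were listed at 0 in all M7 libraries and fell there against both seedling stages, whereas DN3577_c0_g3 rose from 0.33 to 1.09 FPKM in seedlings to 1.7, 3.01 and 1.68 in M7. DN115202_c0_g1 reached 1 FPKM only in L1 libraries, so its falls from L1 follow in part from the filter.

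The bifunctional D-cysteine desulfhydrase/ACC deaminase, DN12918_c0_g1, is named for an enzyme that can break down ACC or release hydrogen sulfide from cysteine. It was at 24.04, 30.72 and 62.29 FPKM in L1, 20.97, 21.67 and 19.55 in L2, and 1.7, 6.97 and 5.67 in M7, with all M7 libraries below all others. In M7 it dropped by 2.82 ± 0.47 on the log2 scale against L1 (limma adjusted p = 0.00138) and dropped by 2.05 ± 0.47 against L2 (adjusted p = 0.00546), and it was a down-regulated DEG in both. Both DEG calls rested on L1 replicate 3, without which the highest stage mean was 27.4 FPKM. The call against L2 also needed M7 replicate 1, without which the log2 fold change was -1.57 (adjusted p = 0.00806). It was lost as well after median ratio rescaling (-1.32), after quantile normalization (-1.02) and with a pseudocount of 5 (-1.44), and the DEG call against L1 was lost after quantile normalization (-1.97).

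In ethylene perception, the receptor DN34925_c0_g1 was highest in L1. It had 15.39, 17.51 and 22.29 FPKM in L1, 14.15, 13.38 and 14.12 in L2 and 1.71, 8.7 and 8.99 in M7. It fell in M7 against L1 (-1.58 ± 0.48, limma adjusted p = 0.0258), and this call was lost without L1 replicate 2 or 3 (adjusted p = 0.0642 and 0.0765), after quantile normalization (-0.72, adjusted p = 0.0593) and when only L1 and M7 were fitted (adjusted p = 0.0958). In M7 against L2 the value was -1.22 ± 0.48 (adjusted p = 0.055), although the libraries did not overlap. It passed without any 1 of the M7 libraries, at -0.60 without replicate 1 (adjusted p = 0.0227), -1.52 without replicate 2 (adjusted p = 0.0334) and -1.54 without replicate 3 (adjusted p = 0.0331), but not after median ratio rescaling (-0.49, adjusted p = 0.233) or quantile normalization (-0.13, adjusted p = 0.727).

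The EIN3-binding F-box proteins, which in *Arabidopsis* limit the ethylene response, were a pair of unigenes of the same read cluster. Both were highest in M7, with changes of different size. DN1694_c0_g1 rose at each stage, with 8.26, 7.74 and 3.11 FPKM in L1, 19.86, 20.08 and 17.88 in L2 and 194.59, 155.85 and 84.78 in M7. No 2 stages overlapped, and the mean of M7 was 22.8 times that of L1. Its log2 fold change was 1.55 ± 0.40 in L2 against L1 (limma adjusted p = 0.0135), 4.32 ± 0.40 in M7 against L1 (adjusted p = 5.67e-05) and 2.77 ± 0.40 in M7 against L2 (adjusted p = 0.000424), with DEGs in the comparisons with M7. After median ratio rescaling the L2 value was 1.32 (adjusted p = 0.0881). The other unigene, DN1694_c0_g2, was at 138.37, 113.57 and 48.5 FPKM in L1, 111.21, 107.87 and 104.07 in L2 and 216.49, 213.29 and 139.12 in M7. Its M7 libraries were the highest, yet the differences from L1 (1.02 ± 0.38, adjusted p = 0.0615) and from L2 (0.78 ± 0.38, adjusted p = 0.109) did not pass in limma. Without L1 replicate 1 the former was 1.31 and passed (adjusted p = 0.0308). It also passed after median ratio rescaling (1.65, limma adjusted p = 0.019) but not after quantile normalization (0.94, adjusted p = 0.0711). L1 replicate 3 was low for both. Without it the difference of DN1694_c0_g2 between M7 and L2 stayed at 0.78 but passed (limma adjusted p = 0.0127). That library enters this comparison only through the shared estimate of the spread. Median ratio rescaling also brought the difference past the threshold, at 1.66 (limma adjusted p = 0.0154). How the reads of the cluster were shared between the 2 unigenes cannot be seen from FPKM.

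Among the 5 EIN3-like transcription factors, those with higher levels passed in no comparison and the 2 lowest fell in M7. DN12410_c0_g1 had 79.86, 82.74 and 50.15 FPKM in L1, 98.96, 94.58 and 97.08 in L2 and 57.79, 171.87 and 142.45 in M7. M7 replicate 1 fell within the L1 range while the other M7 libraries were above all seedling libraries, and the value in M7 against L1 was 0.69 ± 0.40 (limma adjusted p = 0.21), or 1.17 without that library (adjusted p = 0.00498) and 1.32 after median ratio rescaling (adjusted p = 0.000511). DN12410_c0_g3 of the same cluster had the same order within M7, with 21.78 FPKM in replicate 1 beside 79.84 and 70.11. DN10037_c0_g1 held 4.33 to 11.18 FPKM at all stages. DN2828_c0_g1, named ETHYLENE INSENSITIVE 3-like 3, fell from 5.99 to 8.06 FPKM in seedlings to 0.11, 2.13 and 1.64 in M7 (-1.84 ± 0.37 against L1, limma adjusted p = 0.00354, and -2.08 ± 0.37 against L2, adjusted p = 0.00136). Its neighbour DN2828_c0_g2 was lower still and fell too, with opposite signs under quantile normalization (0.01 against L1 and 0.25 against L2, neither passing). DN2828_c0_g2 reached 1 FPKM only in L2 libraries, so its fall from L2 follows in part from the filter.

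**Figure D3:**
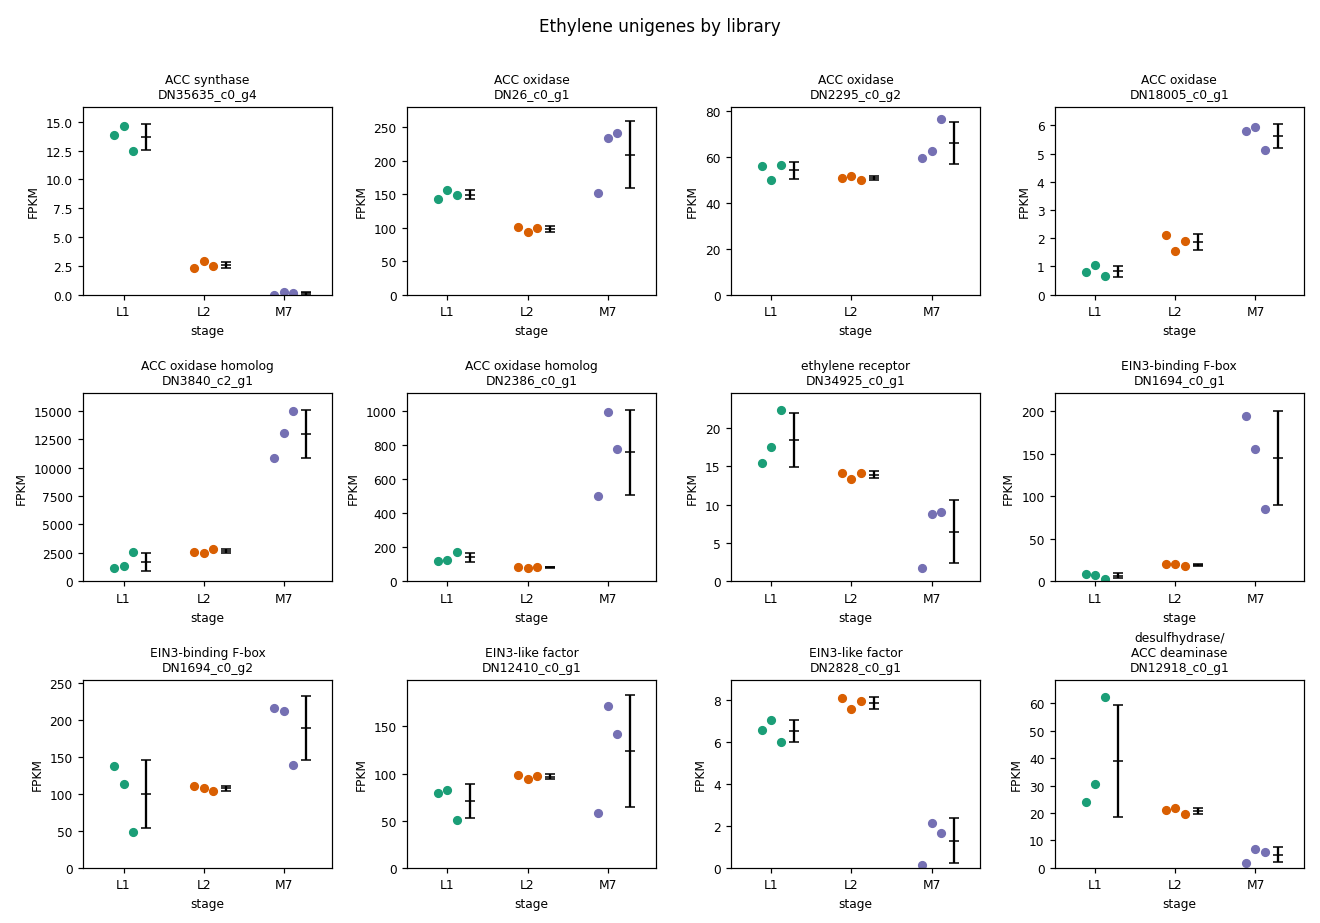
Level in FPKM (vertical axes, separate scale per panel) of 12 ethylene unigenes in the 3 libraries of each stage (points, replicates 1 to 3 from left to right), with bars for the mean ± SD (n = 3). ACC synthase and the desulfhydrase/ACC deaminase are lowest in M7, and the ACC oxidase homologs and DN1694_c0_g1 are highest there, with M7 replicate 1 apart in the panels of the receptor and of DN12410_c0_g1.

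Of the 11 cytokinin unigenes, 1 rose and 6 fell in M7 against either seedling stage, and 2 rose and 2 fell in L2 against L1. The share lower in M7 was 54.5% in both comparisons, beside 35.1% of all tested unigenes against L1 and 52.6% against L2, so that against L2 was near the background. The share higher in M7 was 9.09% in both, beside 9.37% and 7.71%. In L2 against L1, 18.2% were higher and 18.2% lower, beside 26.1% and 14.8%. After quantile normalization 3 were higher and 4 lower in each comparison with M7. The 4 LOG enzymes, which release active cytokinin from its nucleotide, did not move alike. DN20421_c0_g2 (LOG8-like) was the highest, with 41.52, 48.18 and 70.85 FPKM in L1, 22.8, 22.13 and 24.38 in L2 and 3.78, 11.94 and 18.15 in M7, with no overlap between stages. It was a down-regulated DEG in M7 against L1 (-2.33 ± 0.48, limma adjusted p = 0.00408), with a value of -1.76 without M7 replicate 1 (adjusted p = 0.00135), -1.76 after median ratio rescaling, -1.65 after quantile normalization and -1.92 with a pseudocount of 5, which are all short of the DEG threshold. Neither L2 against L1 (-1.14 ± 0.48, adjusted p = 0.092) nor M7 against L2 (-1.19 ± 0.48, adjusted p = 0.0595) passed. Without M7 replicate 1, which enters the former only through the shared spread, the former did (limma adjusted p = 0.006). Without M7 replicate 3 the latter did (-1.61, limma adjusted p = 0.0165). The former also passed after median ratio rescaling (-1.37, limma adjusted p = 0.0135) and quantile normalization (-1.34, adjusted p = 0.0055), and with a pseudocount of 5 (-1.03, adjusted p = 0.0408). DN16864_c0_g1 (LOG3-like) went from 24.58, 25.67 and 18.01 FPKM in L1 through 7.12, 6.07 and 9.46 in L2 to 0, 1.97 and 0.57 in M7. DN10489_c0_g2 (LOG3) followed with 21.82, 18.52 and 26.46, then 6.55, 7.62 and 6.41, then 0, 0.12 and 2.08. Both fell in all 3 comparisons, with log2 fold changes of -3.81 ± 0.39 and -3.93 ± 0.41 in M7 against L1 (limma adjusted p = 9.81e-05 and 0.000109). The exception was DN23250_c0_g1 (LOGL10), which had 10.63, 18.93 and 19.21 FPKM in M7 beside 8.18 to 9.76 in L2 and rose in M7 against L2 (0.71 ± 0.25, limma adjusted p = 0.038).

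Cytokinin dehydrogenases, which degrade the hormone, were low in all libraries. The highest, DN32671_c0_g2 (dehydrogenase 6), was listed at 4.1, 3.99 and 0 FPKM in L1, 7.34, 5.12 and 0 in L2 and 0 in all M7 libraries. Libraries of the same seedling stage differed widely and no comparison passed, although without L2 replicate 3 M7 was lower than L2 (-2.84, adjusted p = 0.0133). DN21856_c0_g1 and DN114403_c0_g1 (dehydrogenase 5) stayed at or under 2.07 FPKM, and DN114403_c0_g1 fell in M7 against both stages with the deposited values but rose after quantile normalization (0.57, adjusted p = 0.025, and 0.72, limma adjusted p = 0.00818).

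The response regulators of cytokinin split as well. DN3625_c0_g1 (ARR5, type A in *Arabidopsis*) had 20.59, 23.32 and 23.71 FPKM in L1, 34.44, 34.75 and 39.47 in L2 and 30.26, 42.84 and 43.95 in M7. L2 and M7 overlapped and both lay above L1, by 0.66 ± 0.21 (limma adjusted p = 0.0319) and 0.75 ± 0.21 (adjusted p = 0.0172). The rise in L2 did not pass after median ratio rescaling (0.43, adjusted p = 0.205) or without L1 replicate 1 or 2 or any L2 library (adjusted p = 0.0629 to 0.0898), and the rise in M7 did not pass without L1 replicate 1 or M7 replicate 3 (adjusted p = 0.0595 and 0.0585). In M7 against L2 its value was 0.09 ± 0.21 (adjusted p = 0.747), and 0.95 after median ratio rescaling (adjusted p = 0.00965). DN11915_c0_g1 (ARR5-like) peaked in L2, with 9.35 to 10.52 FPKM beside 3.47 to 4.47 in L1 and 0, 1.36 and 0.76 in M7. It rose by 1.11 ± 0.31 in L2 against L1 (limma adjusted p = 0.0204) and fell by 2.76 ± 0.31 in M7 against L2 (adjusted p = 9.83e-05). DN3332_c0_g1 (ARR3-like) was also highest in L2, at 10.95 to 12.88 FPKM, but passed in no comparison. The type-B regulator DN3289_c0_g1 (ARR12-like) had 24.69, 25.28 and 23.3 FPKM in L1, 20.1, 21.66 and 20.32 in L2 and 0.72, 6.45 and 3.92 in M7. It fell in M7 against L1 (-2.67 ± 0.47, limma adjusted p = 0.00187) and against L2 (-2.45 ± 0.47, adjusted p = 0.00222), and its stage means stayed under 30 FPKM.

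Of the 16 gibberellin unigenes, 3 rose and 10 fell in M7 against L1, 3 rose and 9 fell in M7 against L2, and 2 rose and 4 fell in L2 against L1. The shares lower in M7 were 62.5% against L1, beside 35.1% of all tested unigenes, and 56.2% against L2, near the background of 52.6%. After quantile normalization 4 were higher and 6 lower against L1, and 5 and 5 against L2. Of the 4 synthesis enzymes, 3 were lower in M7 than in L1 (background 35.1%), and 2 were lower in M7 than in L2 (background 52.6%). Those lower than in L1 include DN13285_c0_g1, which passed the filter only through its L1 libraries. After quantile normalization the GA 20-oxidase and 1 GA 3-oxidase were lower in M7 than in L1. Only 1 GA 3-oxidase was then lower in M7 than in L2. The GA 20-oxidase DN16811_c0_g1 had 15.96, 13.65 and 4.15 FPKM in L1, 1.25, 1.26 and 1.29 in L2 and 0 in all M7 libraries. It fell by 2.26 ± 0.41 in L2 against L1 (limma adjusted p = 0.00215) and fell by 3.44 ± 0.41 in M7 against L1 (adjusted p = 0.000217). Its call in M7 against L2 (-1.18 ± 0.41, adjusted p = 0.0354) was lost when any L2 or M7 library was left out (adjusted p = 0.07 to 0.0903), and its value was -0.07 after quantile normalization (adjusted p = 0.892) and -0.33 with a pseudocount of 5 (adjusted p = 0.335). The GA 3-oxidase DN12746_c0_g1, which acts at the last step to active gibberellin, took another course, with 29.24, 31.54 and 23.79 FPKM in L1, 49.58, 44.87 and 50.93 in L2 and 0.73, 5.83 and 8.76 in M7. It was highest in L2 and a down-regulated DEG in M7 against L1 (-2.58 ± 0.57, limma adjusted p = 0.0059) and against L2 (-3.34 ± 0.57, adjusted p = 0.00107). Without M7 replicate 1 the value against L1 was -1.83 (adjusted p = 0.000351), short of the DEG threshold, as it was after quantile normalization (-1.73) and with a pseudocount of 5 (-1.80). The difference between L2 and L1 (0.77 ± 0.57, limma adjusted p = 0.324) did not pass in the fit of all libraries. It passed without M7 replicate 1 (limma adjusted p = 0.0109), which enters it only through the shared spread. The other GA 3-oxidases were low, at 1.5 to 7.8 FPKM in L1 and 0 in L2 and M7 for DN13285_c0_g1, and at 0.6 to 11.35 FPKM with no call for DN37983_c0_g1.

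Of the 4 GA 2-oxidases, which inactivate gibberellin, 2 rose and 2 fell in M7 against either seedling stage. The 50.0% in each direction stand beside 9.37% higher and 35.1% lower of all tested unigenes against L1. Against L2 the background was 7.71% higher and 52.6% lower. DN2736_c0_g1 had 12.42, 12.33 and 13.08 FPKM in L1, 7.91, 7.23 and 8.29 in L2 and 20.29, 98.16 and 79.1 in M7. All M7 libraries were above the seedlings, and it was an up-regulated DEG against L1 (2.02 ± 0.51, limma adjusted p = 0.0121) and against L2 (2.65 ± 0.51, adjusted p = 0.00229). The DEG call against L1 lay close to the threshold, with values of 1.60 and 1.76 without M7 replicate 2 or 3, 1.78 with a pseudocount of 5 and an adjusted p of 0.0609 when only L1 and M7 were fitted. DN18577_c0_g1 rose in M7 as well, from 12.47, 10.9 and 3.93 FPKM in L1 and 7.97, 8.3 and 9.09 in L2 to 23.04, 20.47 and 34.62 (1.51 ± 0.39 against L1, limma adjusted p = 0.0133, and 1.48 ± 0.39 against L2, adjusted p = 0.011), and after median ratio rescaling it was a DEG (2.13 and 2.30). DN18428_c0_g1 went the other way, with 16.35, 11.86 and 5.07 FPKM in L1, 13.07, 14.01 and 14.51 in L2 and 0.1, 2.03 and 0 in M7, with a log2 fold change of -2.89 ± 0.51 against L1 (limma adjusted p = 0.00181). DN18754_c0_g1 peaked in L2, with 7.27, 8 and 6.45 FPKM beside 2.21, 2.59 and 0.51 in L1 and 0.27, 0.31 and 0.39 in M7. It rose in L2 by 1.67 ± 0.32 (limma adjusted p = 0.00311) and fell by 2.63 ± 0.32 in M7 against L2 (adjusted p = 0.000166); its fall against L1 (-0.97) became 0.22 after quantile normalization.

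Of the 6 DELLA repressors, 1 rose and 3 fell in M7 against either seedling stage. The 50.0% that fell stand beside 35.1% of all tested unigenes against L1 and 52.6% against L2. The 16.7% that rose stand beside 9.37% and 7.71%. After quantile normalization the balance turned, with 2 higher and 1 lower against L1 and 3 and 1 against L2. DN11547_c0_g1 (GAI1-like) was at 0.81, 0.93 and 0.82 FPKM in L1, 1.4, 1.95 and 2.09 in L2 and 13.89, 7.32 and 11.4 in M7. It rose by 2.64 ± 0.25 on the log2 scale against L1 (limma adjusted p = 6.65e-05) and by 2.04 ± 0.25 against L2 (adjusted p = 0.000168), and it was the DELLA unigene with the highest level in each M7 library. DN16815_c0_g1 and DN16815_c0_g2 (RGL1-like) were both at 0 in all M7 libraries and at 0.85 to 2.61 FPKM in seedlings, where DN16815_c0_g2 rose from L1 to L2 (0.80 ± 0.13, limma adjusted p = 0.00108). DN16815_c0_g2 reached 1 FPKM only in the L2 libraries, so its higher level there follows in part from the filter. DN110597_c0_g1 fell from 0.45 to 1.19 FPKM in seedlings to 0.06 to 0.14 in M7, a change that became a gain of 0.85 against L2 after quantile normalization (adjusted p = 0.00785). The remaining DELLA unigenes, DN2039_c0_g2 and DN113028_c0_g1, held at most 2.92 FPKM and passed in no comparison.

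The unigene named gibberellin-regulated protein 14-like, DN13458_c0_g1, of a family of small cysteine-rich proteins, was the only member that was a DEG in all 3 comparisons. It had 32.62, 42.7 and 73.94 FPKM in L1, 9.86, 10.68 and 7.03 in L2 and 0.35, 0.16 and 0 in M7. No 2 stages overlapped. It fell by 2.25 ± 0.32 in L2 against L1 (limma adjusted p = 0.000547), fell by 5.37 ± 0.32 in M7 against L1 (adjusted p = 8.48e-06) and fell by 3.12 ± 0.32 in M7 against L2 (adjusted p = 6.11e-05). The DEG in L2 against L1 rested on L1 replicate 3, without which the value was -1.93 (adjusted p = 0.00075), and it was also lost with a pseudocount of 5 (-1.89). The DEG in M7 against L2 was lost after quantile normalization (-1.73) and with a pseudocount of 5 (-1.45). The chitin-inducible gibberellin-responsive protein DN17553_c0_g1 fell in the same order, from 6.26, 4.52 and 2.74 FPKM through 1.39, 1.47 and 1.21 to 0, 0.16 and 0; its fall in M7 against L2 (-1.16) became 0.10 after quantile normalization.

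**Figure D4:**
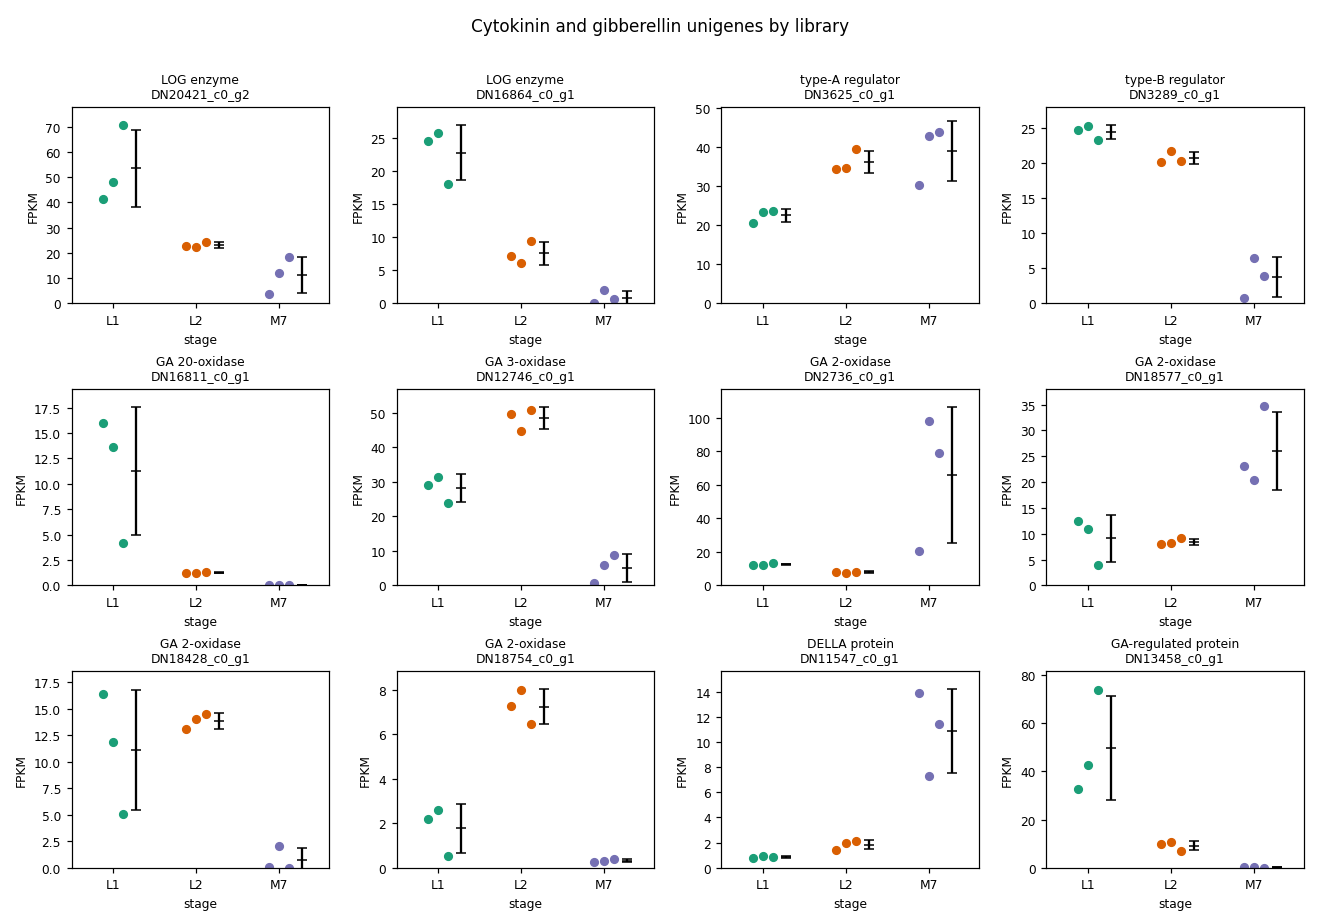
Level in FPKM (vertical axes, separate scale per panel) of 4 cytokinin and 8 gibberellin unigenes in the 3 libraries of each stage (points, replicates 1 to 3 from left to right), with bars for the mean ± SD (n = 3). DN20421_c0_g2, DN16864_c0_g1, DN16811_c0_g1 and DN13458_c0_g1 step down from L1 to M7, while DN2736_c0_g1, DN18577_c0_g1 and DN11547_c0_g1 are highest in M7.

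All 4 brassinosteroid members carry the name of the co-receptor kinase BAK1, so they show no part of brassinosteroid synthesis. Each fell in M7 against L1, and 3 of them fell in M7 against L2, beside 35.1% and 52.6% of all tested unigenes. Against L1, 3 were lower under either rescaling, and against L2, 3 after median ratio rescaling and 1 after quantile normalization. DN17883_c0_g1 was the highest, with 9.92, 10.28 and 12.23 FPKM in L1, 7.36, 7.77 and 9.48 in L2 and 0.69, 1.43 and 1.05 in M7. Its change was -2.53 ± 0.21 against L1 (limma adjusted p = 3.77e-05) and -2.17 ± 0.21 against L2 (adjusted p = 4.56e-05), and the M7 mean was 10.2 times lower than that of L1. DN1375_c0_g2 kept 0.72, 3.3 and 2.62 FPKM in M7 beside 4.72 to 6.73 in seedlings, and its log2 fold change of -1.32 against L2 became 0.03 after quantile normalization. DN22932_c0_g1 was at 1.84 to 4.16 FPKM in seedlings and at most 0.03 in M7. DN27498_c0_g4 was listed at 0 in all M7 libraries and was the only one of the 4 that fell in L2 against L1 (-0.96 ± 0.32, limma adjusted p = 0.0444). Its 0.11 to 1.01 FPKM in L2 overlapped the 0.74 to 3.04 FPKM of L1.

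Other genes of the 4 pathways were taken from the names in the table in the same way. The words searched found no further ethylene name among tested unigenes. Of 23 further cytokinin unigenes, 1 rose and 12 fell in M7 against L1, 2 rose and 16 fell in M7 against L2, and 6 rose and 4 fell in L2 against L1. The shares lower in M7 were 52.2% against L1 and 69.6% against L2, beside the 35.1% and 52.6% of all tested unigenes, and after quantile normalization 8 and 11 were lower. The shares higher in M7 were 4.35% and 8.7%, beside 9.37% and 7.71%. In L2 against L1, 26.1% were higher and 17.4% lower, near the background of 26.1% and 14.8%. This list by name also holds histidine kinases and pseudo-response regulators that are not known as parts of the cytokinin pathway. The examples named in these lists were chosen after their values were seen. Histidine kinase 4 (DN20392_c0_g3), a cytokinin receptor in *Arabidopsis*, fell from 27 to 28.89 FPKM in L1 and 31.62 to 33.3 in L2 to 1.29, 7.25 and 5.7 in M7 (-2.51 ± 0.43 against L1, limma adjusted p = 0.00167). An adenylate isopentenyltransferase 3-like unigene (DN28133_c0_g1), named for the first step of cytokinin synthesis, had 0.71, 0.79 and 0.07 FPKM in L1, 1.73, 1.75 and 2.44 in L2 and 7.51, 2.57 and 5.54 in M7. It rose in M7 against L1 (1.97 ± 0.35, limma adjusted p = 0.00207).

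Of 10 further gibberellin unigenes, 2 rose and 4 fell in M7 against either seedling stage, with 1 in each direction in L2 against L1. The 40.0% that fell in M7 stand beside 35.1% of all tested unigenes against L1 and 52.6% against L2. After quantile normalization 3 were higher and 2 lower against L1, and 2 and 3 against L2. An ent-kaurene oxidase (DN36844_c0_g1), which acts early in gibberellin synthesis, had 16.42 to 23.16 FPKM in L1, 22.25 to 24.2 in L2 and 1.65, 5.03 and 3.66 in M7 (-2.29 ± 0.31 against L1, limma adjusted p = 0.000438). The rises in M7 were in a snakin-2-like unigene (DN16571_c0_g1), of the same protein family as the gibberellin-regulated proteins, and in an F-box protein GID2-like unigene (DN16966_c0_g1), named for the F-box protein that sends DELLA proteins for degradation in rice. The snakin-2-like unigene had 120.16, 103.37 and 50.78 FPKM in L1, 216.17, 236.31 and 254.02 in L2 and 418.79, 471.62 and 1486.99 in M7 (2.94 ± 0.51 against L1, limma adjusted p = 0.00168). The GID2-like unigene had 3.92, 4.23 and 7.31 FPKM in L1, 1.15, 1.89 and 1.13 in L2 and 20.6, 14.06 and 9.13 in M7 (2.65 ± 0.34 against L2, limma adjusted p = 0.000207).

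Of 28 further brassinosteroid unigenes, none rose and 13 fell in M7 against L1, 1 rose and 17 fell in M7 against L2, and 2 rose and 4 fell in L2 against L1. The shares lower in M7 were 46.4% and 60.7%, beside 35.1% and 52.6% of all tested unigenes, and after quantile normalization 9 and 8 were lower and 2 and 3 higher. The shares higher in M7 were 0.0% and 3.57%, beside 9.37% and 7.71%. In L2 against L1, 7.14% of these unigenes were higher and 14.3% lower, beside 26.1% and 14.8%. At an unadjusted limma p under 0.05, 1 of them was higher in M7 than in L1. BSK3 (DN20519_c2_g1), a kinase that takes the signal from the receptor, fell from 22.81 to 28.32 FPKM in L1 and 20.33 to 24.77 in L2 to 1.65, 1.96 and 2.61 in M7 (-3.15 ± 0.20 against L1, limma adjusted p = 1.16e-05). Among the BES1/BZR1 transcription factor names, which switch brassinosteroid genes, DN10561_c0_g1 had 30.8, 31.91 and 27.65 FPKM in L1 and 11.94, 4.54 and 5.61 in M7 and fell (-1.99 ± 0.31, limma adjusted p = 0.00101). DN23416_c0_g1 of the same name was at 81.94, 81.57 and 45.28 FPKM in L1 and 117.84, 86.7 and 89.64 in M7 and did not pass (adjusted p = 0.15). The 1 unigene that rose against L2 was cytochrome P450 90A2 (DN19617_c0_g1), a brassinosteroid synthesis enzyme, with 13.87 to 15.32 FPKM in L2 and 23.7, 29.48 and 33.17 in M7.

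Names left out by the member rule were also read. Of the 20 dropped for their match species, the exception to a value of 0 in M7 was a GA 20-oxidase-like unigene (DN21089_c0_g1) matched to *Quercus suber*, with 32.08, 30.33 and 53.51 FPKM in L1, 35.43, 37.48 and 34.35 in L2 and 0.05, 0.38 and 1.5 in M7. A further 31 names were under the filter, 17 of them with a kept match species. At the edge of the filter, DN113028_c0_g1 (DELLA) was kept with 2.38, 2.92 and 1.77 FPKM in 1 library of each stage and 0 in the rest, and DN117229_c0_g1 (DELLA), with 1.81, 1.77 and 0.55 FPKM in L1, 0.38, 0.42 and 0.97 in L2 and 0 in M7, was left out. A GID1B receptor name (DN28213_c0_g1) reached 2.57 FPKM in 1 M7 library and 0.16 or less in the rest, and was left out as well. Some members passed the filter through a single stage. DN115202_c0_g1 and DN13285_c0_g1 reached 1 FPKM only in L1 libraries, and DN16815_c0_g2 and DN2828_c0_g2 only in L2 libraries. Their higher level in that stage follows in part from the filter.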

How the data were processed

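RNA-Seq libraries of *D. asperoides* roots (L1, L2 and M7, 3 each) were read from a single table. The authors checked reads with FastQC, assembled all clean reads with Trinity without a reference genome and quantified unigenes with RSEM. The authors deposited values that the methods call FPKM in one place and TPM in another. Column sums of 611087.9 to 695069.8 over the 65535 unigenes held here do not tell them apart. Since FPKM are no counts, count models were not used, and the depth behind a value is unknown. The 34925 unigenes that reached 1 FPKM in 3 or more libraries were fitted together with limma 3.58.1 in R 4.3.3 as log2(FPKM + 1), with a mean per stage, a trend in the variance and Benjamini-Hochberg adjustment (two-sided). DEG thresholds follow the methods, and the highest stage mean was taken for their FPKM maximum.

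Members, pathway lists and cell type markers were chosen with earlier results of these data known. Values in each library are given for DEGs and for the highest member of each role, and other members are examples. Alternatives were pseudocounts of 0.1 and 5, other filters, 2 rescalings, no variance trend, fits of the 2 stages compared, a replicate block, the highest single library for the DEG level and each library left out. Leaving out L1 replicate 3 and M7 replicate 1 together was added after the data were seen. No sequences were used here.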

Additional observations from a re-analysis of the deposited data

How the results depend on the processing

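The counts of members passing kept within 1.5 times of those reported except in the cases given here. In L2 against L1, 6 were higher and 10 lower. The higher count was 3 after median ratio rescaling and 3 after quantile normalization, 10 when only the 2 stages were fitted and 12 without L1 replicate 3 and M7 replicate 1 together, and the lower count was 16 after quantile normalization. A filter of at least 1 FPKM in all 9 libraries left 22 members and gave 0 higher and 0 lower; 3 of the calls lost were of members still tested, DN1694_c0_g1 (adjusted p = 0.0636), DN3625_c0_g1 (adjusted p = 0.166) and DN26_c0_g1 (adjusted p = 0.183). In M7 against L1, with 10 higher, that count was 17 after median ratio rescaling, 18 after quantile normalization and 16 without both libraries. The 29 lower members became 3 under the filter on all 9 libraries and 18 after quantile normalization. In M7 against L2, quantile normalization gave 21 higher and 12 lower in place of 12 and 27, and the filter on all 9 libraries gave 2 lower. Down-regulated DEGs in L2 against L1 (1) became 0 with a pseudocount of 5, with the filter on all 9 libraries and without both libraries. Those in M7 against L1 (4) became 2 with a pseudocount of 5, 2 with that filter, 1 after quantile normalization and 1 without both libraries. Those in M7 against L2 (3) became 1 with a pseudocount of 5, with that filter and after quantile normalization. When only L1 and L2 were fitted, their values and fold changes stayed the same, and the estimate of the spread differed. An example is DN2386_c0_g1, at -0.75 in L2 against L1 in both fits (limma adjusted p = 0.0563, and 0.0102 with 2 stages). The cause of the other changes was not tested.

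Leaving out 1 library at a time gave 3 to 10 higher and 7 to 13 lower in L2 against L1, 10 to 16 and 25 to 29 in M7 against L1, and 10 to 16 and 23 to 28 in M7 against L2. The high ends of the higher counts (10, 16 and 16) came without M7 replicate 1, and the 3 came without L2 replicate 1 or 3. Down-regulated DEGs ranged from 0 to 1, 2 to 4 and 2 to 3, and up-regulated DEGs in the comparisons with M7 from 3 to 6 and 4 to 6.

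Of the called values, 13 turned sign under quantile normalization, and 4 of them passed in both fits. The other changes of sign, among DEGs and the highest member of each role, were of values that passed in neither fit. With each library left out in turn, DN1694_c0_g2 in L2 against L1 (0.23) ran from -0.22 (without L1 replicate 3) to 0.53, DN32671_c0_g2 in L2 against L1 (0.33) from -0.44 (without L1 replicate 3) to 1.28, with -0.25 and -0.03 without L2 replicates 1 and 2, DN12410_c0_g1 in M7 against L2 (0.21) from -0.09 (without M7 replicate 2) to 0.69, and DN3625_c0_g1 in M7 against L2 (0.09) from -0.01 (without M7 replicate 3) to 0.26. DN1694_c0_g2 was also at -0.0 after median ratio rescaling and -0.22 without both libraries, where DN32671_c0_g2 was at -0.44.

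Same-numbered libraries of different stages did not deviate together (correlations of -0.05 to 0.05, beside -0.08 to 0.08 for different numbers). With 3 libraries per stage this cannot show whether they shared a batch or preparation, and the labels do not say. With the replicate block, 5 members were higher and 8 lower in L2 against L1, 12 and 29 in M7 against L1, and 11 and 28 in M7 against L2. Without counts, unigenes at a few FPKM or listed at 0 in M7 cannot be given a counting error, and their fold changes depend on the pseudocount.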
